A study of Homo sapiens with 16 samples.

Results

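A set of 10 genes has been named repeatedly as mRNAs that IRE1α cleaves and hands over to decay: CD59, BLOC1S1, HGSNAT, COL6A1, SCARA3, SPARC, PDGFRB, PMP22, PER1 and TNFRSF10B. They were taken from the count table by Ensembl identifier, and all of them were found among its 58051 genes. Their mRNA levels were measured by RNA-seq in LNCaP, a single human prostate cancer cell line, in 4 groups of 4 libraries. In the knockdown experiment, cells received Allstar control siRNA (siCtrl) or siRNA against XBP1 (siXBP1) for 2 days. In the inhibitor experiment, cells received DMSO (Vehicle) or 10 µM MKC8866, an inhibitor of the RNase activity of IRE1α, for 24 h. All 16 libraries, controls included, come from cells that were then exposed for 3 h to 30 nM thapsigargin (TG), which blocks the calcium pump of the endoplasmic reticulum (ER) and causes ER stress. No library of cells without TG was analysed here, so each comparison is between stressed cells. The study describes the replicates as independent samples, but no source used here says whether they were separate cultures, so the p-values below measure only the spread between these samples, which may be technical.

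IRE1α is a sensor of unfolded protein in the ER membrane, and its cytosolic part is an endoribonuclease. Its best known substrate is XBP1 mRNA, from which it removes a short intron so that the transcription factor XBP1s can be made. The same nuclease also cuts other mRNAs, mostly at the ER surface, and the fragments are degraded, a process named regulated IRE1-dependent decay (RIDD). An inhibitor of the nuclease acts on both outputs, whereas siRNA against XBP1 is directed at the mRNA that carries one of them and not at the nuclease. The members were therefore set side by side, gene by gene, under MKC8866 against Vehicle and under siXBP1 against siCtrl. The mRNA of the nuclease itself, ERN1, changed too, by a log2 fold change of 0.25 with MKC8866 and -0.16 after siXBP1. Counts of mRNA do not give the activity of the nuclease.

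IRE1α is known to cut within a short consensus, CUGCAG, when it lies in the loop of a hairpin. Matches are given as DNA letters of the transcript strand, in GRCh38 coordinates, with the 6 bases of the site in capitals and 12 bases on each side. The XBP1 pair is shown as the reference substrate, followed by every match in BLOC1S1, the only match in the coding sequence of CD59, and the PDGFRB match that a folding program placed in a hairpin loop.
XBP1 first site (chr22:28796150-28796155, minus strand): ggtctgctgagtCCGCAGcactcagactac
XBP1 second site (chr22:28796124-28796129, minus strand): ctacgtgcacctCTGCAGcaggtgcaggcc
BLOC1S1 exon 1 (chr12:55716190-55716195, plus strand): gaacgcaaggagCTGCAGgaaaagaggagg
BLOC1S1 exon 2 (chr12:55716957-55716962, plus strand): gagaggctatcaCTGCAGcgacctgcctga
BLOC1S1 exon 4 (chr12:55719589-55719594, plus strand): tacaaagggcagCTGCAGtctgccccttcc
CD59 coding sequence (chr11:33717458-33717463, minus strand): tcaggtcatagcCTGCAGtgctacaactgt
PDGFRB coding sequence (chr5:150130551-150130556, minus strand): catctggtctgcCTGCAGagacctcaaaag

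The XBP1 sites bound the 26 bases that are removed from its mRNA, and only the second of them is spelled CTGCAG. That motif reads the same on both strands, so a search of 1 strand finds all of its matches. It occurred 3 times in the 562 bases of the canonical BLOC1S1 transcript and each time within the coding sequence, which comes to 5.34 matches per kb. The canonical CD59 transcript, of 7563 bases, held 4 matches, 3 of them in the 3′ untranslated region, or 0.529 per kb. The transcripts searched come from another annotation than the count table, in which all CD59 exons together cover 4942 bases. SCARA3 held 8 matches, COL6A1 and PDGFRB 7 each, HGSNAT 6, PER1 5, and SPARC and PMP22 2 each. No match was found in the canonical TNFRSF10B transcript. The motif is common: 85.3% of the 13877 tested protein-coding genes held at least 1 match, against 9 of the 10 members, and the median density was 0.711 matches per kb in all of these genes and 1.12 in the members. When each window of 30 bases was folded alone, the match of BLOC1S1 in exon 2 and the printed match of PDGFRB fell in a hairpin loop, and 16.4% of the tested protein-coding genes had at least 1 such match. The same short window placed only the second of the XBP1 sites in a loop, so it misses some sites of known substrates. A match is a description of the letters and was not read as a cleavage site.

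Between 28713607 and 34509488 fragments were counted per library. Levels are given as CPM, counts scaled to the effective size of each library. All 7 luminal prostate markers reported here, KLK3, KLK2, TMPRSS2, FOLH1, HOXB13, KRT8 and KRT18, were at or above 1 CPM on average in every group. Of the markers of other cells, COL1A2 reached at most 0.0162 CPM as a group mean, DCN 0.0332, PECAM1 0.0399 and PTPRC, which marks leukocytes, 0.0086, while VWF, ACTA2 and COL1A1 were detected in all groups. The summed CPM of the luminal markers differed between groups, with 2603 to 2748 after siXBP1 against 3176 to 3290 in siCtrl, and 3522 to 3697 with MKC8866 against 3232 to 3394 in Vehicle. XBP1, the target of the siRNA, was counted at 385, 421, 365 and 358 CPM in the siCtrl libraries and at 51.0, 53.8, 54.2 and 53.1 CPM in the siXBP1 libraries, a log2 fold change of -2.85 ± 0.05 (SE). With MKC8866, total XBP1 was not lower: it stood at 581 ± 33.7 CPM (SD, n = 4) against 505 ± 25.9 CPM in Vehicle, a log2 fold change of 0.20. Genes known to depend on XBP1s fell with both treatments, 9 of 10 after siXBP1 and 10 of 10 with MKC8866. Their median log2 fold changes were -1.47 and -0.90, with FICD at -2.52 and -2.06 and DNAJB9 at -2.31 and -1.87. By the test given below, 18.2% of all tested genes were lower after siXBP1 and 3.11% with MKC8866. The list was chosen with earlier results of these data known, so its fall is not an independent check of the treatments.

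With MKC8866, 2 of the 10 members rose, CD59 and BLOC1S1, and none fell. CD59 was 1.63-fold higher and BLOC1S1 1.58-fold higher than in Vehicle. The other 8 members, HGSNAT, COL6A1, SCARA3, SPARC, PDGFRB, PMP22, PER1 and TNFRSF10B, did not pass the test in that comparison. After siXBP1, 5 members passed it: PDGFRB, SPARC and TNFRSF10B were higher, and PER1 and CD59 were lower. CD59 was thus called in opposite directions by the inhibitor and by the knockdown. A gene was called where edgeR's quasi-likelihood test, adjusted over all genes tested by the Benjamini-Hochberg method, gave an adjusted p under 0.05. By that rule 4.47% of the 21045 tested genes were called with MKC8866, 1.36% higher and 3.11% lower, and 34.8% of the 21021 tested genes were called after siXBP1, 16.5% higher and 18.2% lower. The 5 members called after siXBP1, 4 with DESeq2, are read as no excess over the 34.8% of all genes. The list of 10 was chosen with earlier results known, and the 2 members higher with MKC8866, set beside 1.36% of all genes, were not tested as a group. The median log2 fold change of the members was 0.17 with MKC8866 and 0.02 after siXBP1, and that of all tested genes was 0.0027 and 0.005. A positive log2 fold change was found for 8 members with MKC8866, 2 of them called, and for 6 after siXBP1, 3 of them called.

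**Figure D1:**
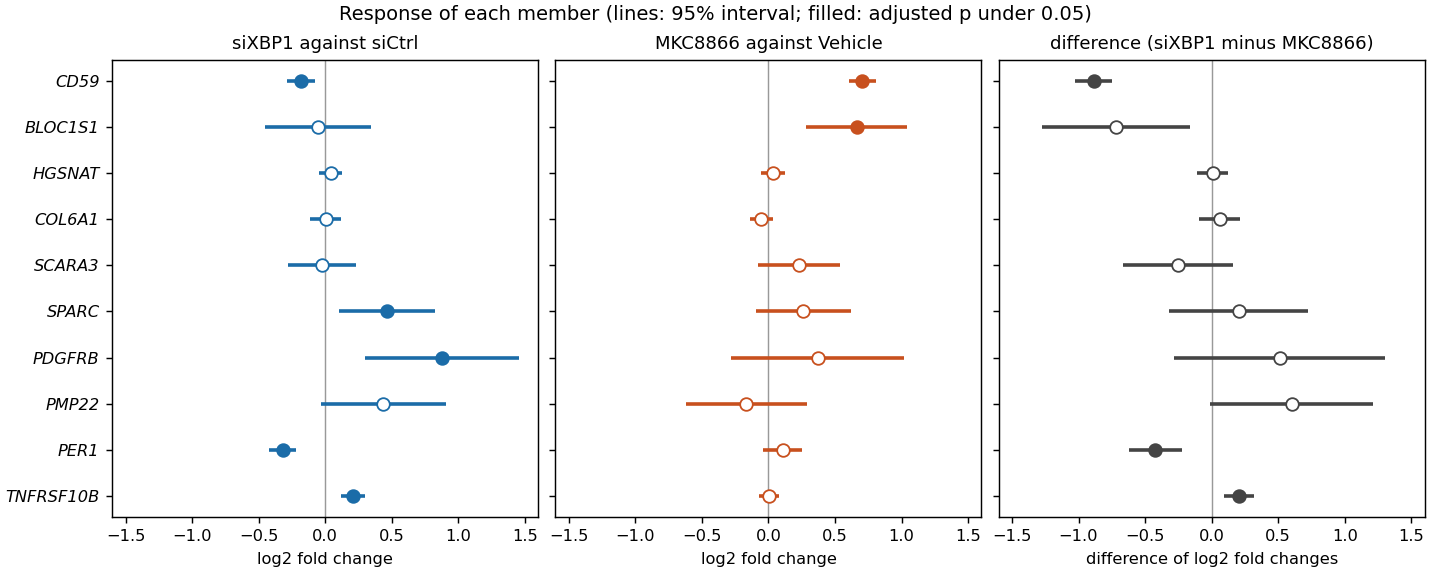
The log2 fold change of each of the 10 members (x axis) with its 95% interval (line), for siXBP1 against siCtrl, MKC8866 against Vehicle, and the difference of the responses; filled points passed an adjusted p under 0.05. CD59 and BLOC1S1 are the filled points to the right under MKC8866 at 0.71 and 0.66, and the intervals of PDGFRB and PMP22 are the widest.

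The members differed greatly in level. Per kb of exon and over all 16 libraries, TNFRSF10B averaged 50.4 CPM per kb and COL6A1 48.6, and their ranges over libraries overlapped. CD59 (9.69), HGSNAT (8.52) and PER1 (8.37 CPM per kb) followed, again with overlapping ranges between neighbours. BLOC1S1 (0.942), SCARA3 (0.789), SPARC (0.391) and PMP22 (0.303) came lower, each overlapping the next. PDGFRB was lowest at 0.0687 CPM per kb, below every library of PMP22, with 9 to 25 counts per library. The SE of the log2 fold change with MKC8866 was 0.05 or less for CD59, HGSNAT, COL6A1 and TNFRSF10B, and 0.31 for PDGFRB.

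**Figure D2:**
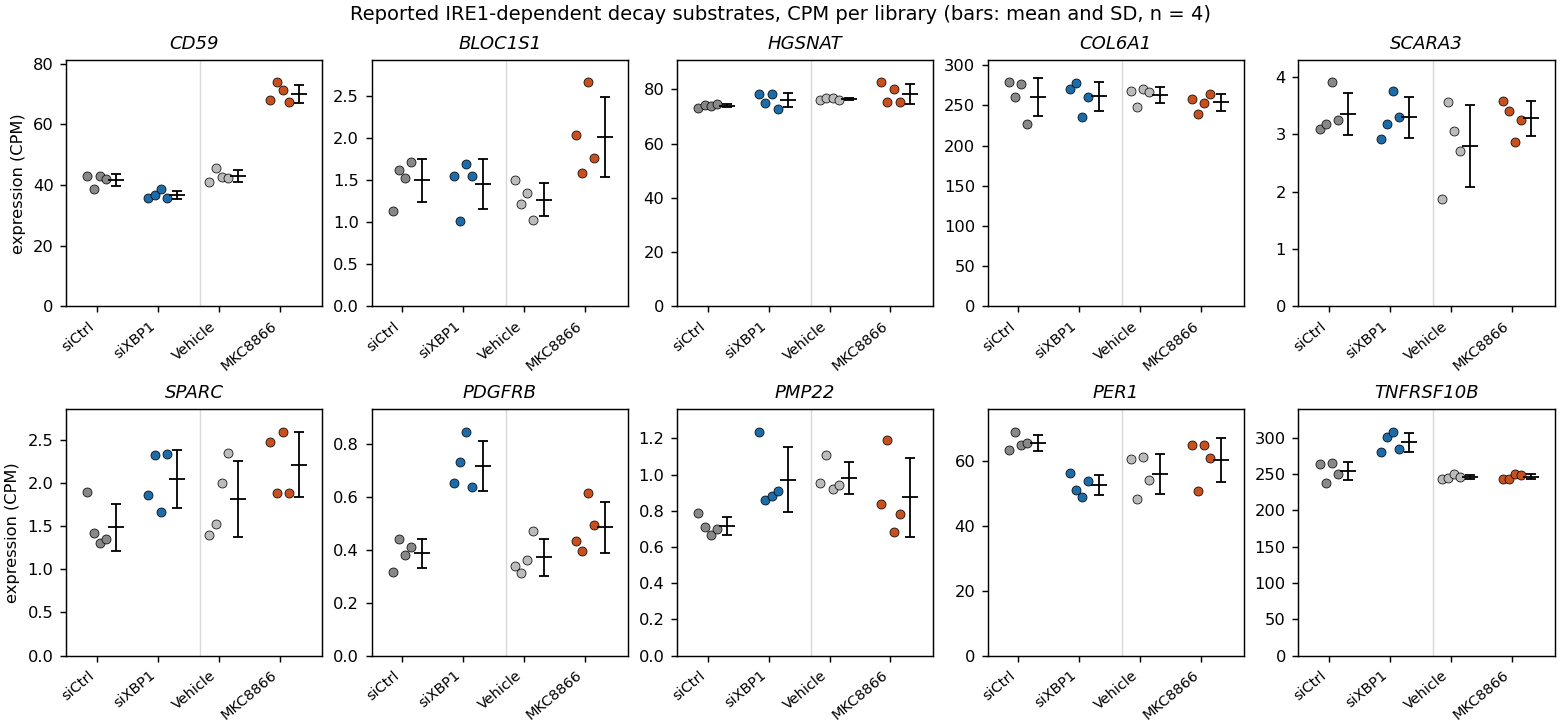
Expression of each member in CPM (y axis from 0, own scale per gene) in the 4 libraries of each group (points), with the mean and SD beside them. The 4 MKC8866 libraries of CD59, from 67.3 to 73.8 CPM, lie above all other libraries, while the points of HGSNAT, COL6A1 and SCARA3 overlap within both experiments.

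CD59, also called protectin, is a membrane-anchored inhibitor of the complement attack complex and one of the mRNAs most often used to report RIDD. It was counted at 41.1, 45.7, 42.6 and 42.5 CPM in the Vehicle libraries and at 68.1, 73.8, 71.2 and 67.3 CPM in the MKC8866 libraries. The groups did not overlap, and the lowest treated library lay far above the highest control, by more than the range within either group (groups do not overlap for 9.33% of all tested genes, 4.11% with the treated group higher and 5.22% with it lower). The log2 fold change was 0.71 ± 0.05 (SE), a 1.63-fold rise with a 95% interval of 1.52 to 1.75 (adjusted p = 3e-10). Among the 287 genes called higher with MKC8866, CD59 ranked 6 by log2 fold change and 5 by p. In the knockdown experiment it was counted at 43.1, 38.7, 43.0 and 41.9 CPM in siCtrl and at 35.8, 36.7, 38.65 and 35.8 CPM in siXBP1. These groups did not overlap either, but only just, since the highest siXBP1 library lay directly under the lowest siCtrl library (groups do not overlap for 32.8% of all tested genes, 15.6% higher and 17.2% lower). The log2 fold change was -0.18 ± 0.05 (adjusted p = 0.00713), and it stayed called without each library in turn, with values from -0.21 to -0.16. The response of CD59 to siXBP1 minus that to MKC8866 was -0.89 on the log2 scale, with a 95% interval of -1.03 to -0.75 (adjusted p = 3.1e-11). Of the 20357 genes tested in both experiments, 65 (0.319%) were called higher with MKC8866 and lower after siXBP1, and CD59 was the only member among them. The summed luminal markers given above moved in the same direction as CD59 in both experiments, by a smaller ratio with MKC8866 and a larger one after siXBP1. The single markers did not all follow the sum. With MKC8866, KLK3 rose without overlap (854.6 to 949 against 607.8 to 681.4 CPM), but KRT18 fell without overlap (214.6 to 236.5 against 252.9 to 281.7 CPM). The other luminal markers overlapped there. After siXBP1, KLK3, KLK2, TMPRSS2 and KRT18 were lower without overlap, and FOLH1, HOXB13 and KRT8 overlapped. The part of the luminal markers in the result was not tested.

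BLOC1S1 encodes a subunit shared by BLOC-1 and BORC, complexes that act in the making of lysosome-related organelles and the positioning of lysosomes, and under its mouse name Blos1 it is a common RIDD reporter. It was weakly expressed, with 32 to 78 counts per library. The Vehicle libraries stood at 1.499, 1.21, 1.35 and 1.03 CPM and the MKC8866 libraries at 2.04, 1.59, 2.67 and 1.77 CPM. All treated libraries lay above all controls, although replicate 2 of MKC8866 was close to replicate 1 of Vehicle. Its log2 fold change was 0.66 ± 0.18 (SE), or 1.58-fold with a 95% interval of 1.22 to 2.06 (adjusted p = 0.0374), and it ranked 8 by log2 fold change among the genes called higher. The call depends on single libraries: the adjusted p rose to 0.0771 without replicate 2 of Vehicle, 0.0666 without replicate 3 and 0.14 without replicate 4, and to 0.0833 without replicate 1 of MKC8866 and 0.195 without replicate 3, where the log2 fold change was 0.50. The call held in the 6 alternative fits that kept every library. Their adjusted p ran from 0.00457, with the replicate number as a block, to 0.0397. In the knockdown experiment BLOC1S1 stood at 1.501 ± 0.258 CPM in siCtrl and 1.45 ± 0.297 CPM in siXBP1 (SD, n = 4), and the groups overlapped. A log2 fold change of -0.05 had a 95% interval of -0.45 to 0.34 (adjusted p = 0.871), wide enough to hold a sizeable change either way. The responses differed by -0.72 with a 95% interval of -1.27 to -0.16, which did not pass the threshold (adjusted p = 0.0559).

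The counts of BLOC1S1 come from part of the gene. Fragments that fall in 2 genes were not counted, and 29.8% of the exon bases of BLOC1S1 in the count table (494 of 1656) also belong to the read-through gene ENSG00000258311, which runs on the same strand into RDH5. In the canonical BLOC1S1 transcript the share is larger: exons 1 to 3 lie wholly inside exons of the read-through gene (357 of 562 bases, 63.5%), and only the 205 bases of exon 4 (chr12:55719499-55719703) lie outside. The CTGCAG matches of exon 1 and exon 2 are in the shared part and that of exon 4 is not. The count table also gives BLOC1S1 exon bases that the canonical transcript lacks. Positions are given from the start of the read-through gene. An exon runs from base 3055 to 4051, of which canonical exon 4 fills 3463 to 3667. Another runs from base 256 to 681, where the canonical transcript has no exon. Most BLOC1S1 bases outside the read-through gene are thus not in canonical exon 4. Which of them the fragments came from was not tested. The read-through gene itself had 8 to 22 counts per library and was not called, at a log2 fold change of -0.38 ± 0.32 with MKC8866 (adjusted p = 0.666) and 0.55 ± 0.32 after siXBP1 (adjusted p = 0.202). Its estimate with MKC8866 was below 0 while that of BLOC1S1 was above. The level of BLOC1S1 per kb given above divides by all of its exon bases, including those from which fragments were not counted.

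**Figure D3:**
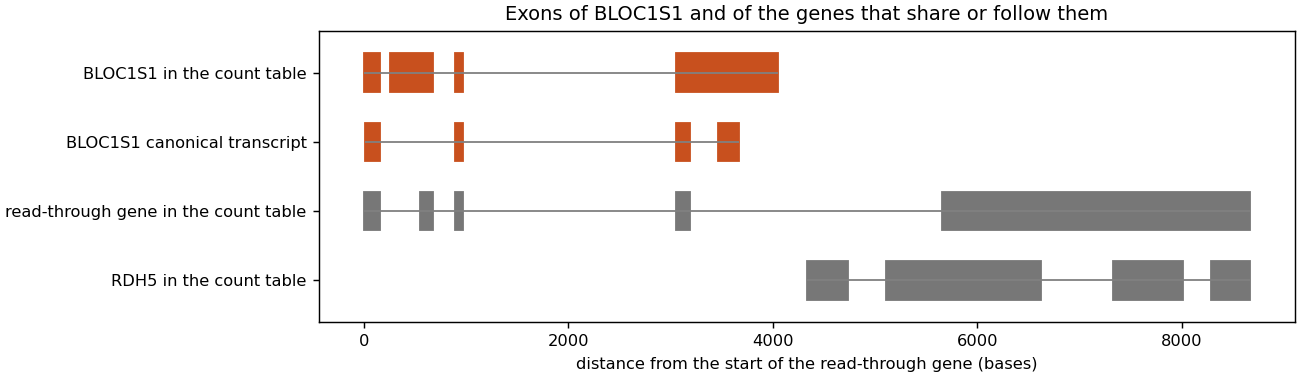
Exons (boxes) of BLOC1S1 in the count table, its canonical transcript, the read-through gene and RDH5, drawn to scale by distance in bases from the start of the read-through gene (x axis). The first 3 of the 4 exons of the canonical transcript sit inside boxes of the read-through gene and the last does not.

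HGSNAT, COL6A1 and SCARA3 are 3 further mRNAs reported as RIDD substrates that showed no call in either experiment. HGSNAT encodes a lysosomal acetyltransferase needed to break down heparan sulfate. It stood at 76.5 ± 0.462 CPM in Vehicle and 78.3 ± 3.57 CPM with MKC8866 (SD, n = 4), and the log2 fold change of 0.03 had a 95% interval of -0.06 to 0.12. After siXBP1 its log2 fold change was 0.04, with an interval of -0.05 to 0.13. These narrow intervals come from a gene with at least 2214 counts in each library. COL6A1, a chain of collagen VI, was similarly well counted. It stood at 263 ± 10.0 CPM in Vehicle and 253.5 ± 10.8 CPM with MKC8866, and its log2 fold change was -0.05 (95% interval -0.14 to 0.03). After siXBP1 the COL6A1 value was 0.00, with an interval of -0.11 to 0.12. For SCARA3, a scavenger receptor protein linked to oxidative stress, the data allow less to be said. Its libraries held 55 to 123 counts, and with MKC8866 the log2 fold change was 0.23 with an interval of -0.08 to 0.54, and 0.08 without replicate 1 of Vehicle. That library, at 1.87 CPM, was the lowest of the 16 libraries, and the other 3 Vehicle libraries, from 2.71 to 3.57 CPM, overlapped the MKC8866 libraries, from 2.87 to 3.58 CPM. After siXBP1 the SCARA3 value was -0.02, with an interval of -0.28 to 0.23.

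SPARC, PDGFRB and PMP22 are known from stromal, vascular and nerve cells and were at the low end in LNCaP. SPARC encodes a matricellular protein that binds collagen. Its siCtrl libraries stood at 1.89, 1.42, 1.30 and 1.35 CPM and its siXBP1 libraries at 1.86, 2.32, 1.66 and 2.34 CPM. The groups overlapped through replicate 1 of siCtrl, and the log2 fold change of 0.47 ± 0.17 (SE) was just past the threshold (adjusted p = 0.042). The SPARC call was lost with DESeq2 (adjusted p = 0.0629) and without replicate 2, 3 or 4 of siCtrl (0.0754, 0.103 and 0.0906) or replicate 2 or 4 of siXBP1 (0.123 and 0.129). With MKC8866 the log2 fold change of SPARC was 0.26, with a 95% interval of -0.10 to 0.62 (adjusted p = 0.529), and the responses differed by 0.20, with an interval of -0.32 to 0.72.

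PDGFRB, the receptor tyrosine kinase of PDGF-B and a marker of pericytes, was counted 10, 15, 12 and 14 times in the siCtrl libraries and 19, 23, 25 and 21 times in the siXBP1 libraries. Every siXBP1 library lay above every siCtrl library, at 0.637 to 0.848 CPM against 0.315 to 0.442 CPM. The log2 fold change was 0.88 ± 0.28 (adjusted p = 0.0164), the largest of any member in size, and without replicate 3 of siXBP1 it was 0.80 and no longer called (adjusted p = 0.0558). With MKC8866 the PDGFRB groups overlapped, and the log2 fold change of 0.37 had an interval of -0.28 to 1.02. PMP22, a myelin protein of peripheral nerve that is also made outside nerve, had 20 to 36 counts per library. Its siXBP1 libraries, from 0.86 to 1.24 CPM, lay above its siCtrl libraries, from 0.666 to 0.788 CPM, but the log2 fold change of 0.44 ± 0.23 was not called (adjusted p = 0.149). With MKC8866 the PMP22 value was -0.17, with an interval of -0.62 to 0.29. The summed CPM of 7 stromal markers ranged from 99.3 to 110.6 in siXBP1 and from 106.9 to 115 in siCtrl, and those of 3 endothelial markers from 7.48 to 8.77 and from 8.09 to 8.67, so the ranges of both sums overlapped. The endothelial sum is nearly all VWF (7.48 to 8.70 CPM in siXBP1 and 8.06 to 8.61 CPM in siCtrl). PECAM1 and CDH5 stood at no more than 0.0688 CPM in these libraries. The stromal sum is mostly ACTA2 and COL1A1 and would not show a change of markers at the level of PDGFRB and SPARC. Of the less expressed stromal markers, COL3A1, a fibrillar collagen, stood at 3.41 to 4.89 CPM in siXBP1 against 1.81 to 2.27 CPM in siCtrl. These ranges did not overlap, and the direction was that of PDGFRB and SPARC. ACTA2 went the other way without overlap, at 60.5 to 68.8 CPM in siXBP1 against 70.4 to 83.8 CPM in siCtrl. COL1A1 (30.8 to 33.7 against 25.2 to 33.3 CPM), VIM (2.61 to 3.05 against 2.52 to 4.13 CPM) and LUM (0.17 to 0.486 against 0.322 to 0.473 CPM) overlapped. COL1A2 (0 to 0.0344 against 0 CPM) and DCN (0 to 0.0339 against 0 to 0.0635 CPM) were nearly absent. The part of such cells in these results was not tested. In bulk RNA a change in the number of cells that express a gene and a change in RNA per cell cannot be told apart.

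PER1, a repressor in the core loop of the circadian clock, was lower after siXBP1. It was counted at 63.3, 69.0, 64.8 and 65.4 CPM in siCtrl and at 56.3, 51.1, 49.0 and 53.8 CPM in siXBP1, with a clear gap between the groups. Its log2 fold change was -0.32 ± 0.05 (SE; adjusted p = 2.03e-05) and the call held under every alternative tried. In the inhibitor experiment PER1 stood at 60.6, 48.2, 61.1 and 54.2 CPM in Vehicle and at 64.7, 50.6, 64.7 and 61.0 CPM with MKC8866. Replicate 2 was the lowest library of both groups, and the groups overlapped over most of their range. Its response was 0.11 on the log2 scale, with a 95% interval of -0.04 to 0.26 (adjusted p = 0.549). At each replicate number, however, the MKC8866 library was the higher. The same test with the replicate number as a block called PER1 higher (95% interval 0.04 to 0.18, adjusted p = 0.0316). No source used here says that the numbers mark pairs, so whether PER1 responded to MKC8866 depends on that choice. The responses of PER1 differed by -0.42, with an interval of -0.62 to -0.23 (adjusted p = 0.00152).

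TNFRSF10B encodes DR5, a death receptor for TRAIL that is itself induced during ER stress by the PERK arm of the response. It was counted at 264, 238, 265 and 249.6 CPM in siCtrl and at 280.3, 301, 308.5 and 284 CPM in siXBP1. All siXBP1 libraries lay above all siCtrl libraries, and the log2 fold change was 0.21 ± 0.04 (SE; adjusted p = 0.000669). In the inhibitor experiment the 4 Vehicle libraries lay between 243 and 250.7 CPM and the 4 MKC8866 libraries over nearly the same range. TNFRSF10B had a log2 fold change of 0.00 there, with a 95% interval of -0.07 to 0.08 (adjusted p = 0.983). The responses differed by 0.21, with an interval of 0.09 to 0.32 (adjusted p = 0.00666). TNFRSF10B is also the member without a CTGCAG match, as described above. All other members held a match, those called with MKC8866 and those not called. Any part of the motif in the responses was not tested.

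Placed side by side, the responses to siXBP1 and to MKC8866 differed for 3 of the 10 members in a fit of all 16 libraries: CD59 and PER1, which were lower after siXBP1 relative to MKC8866, and TNFRSF10B, which was higher. Of the 20357 genes tested in this way, 23.3% were called, 10.6% higher and 12.7% lower. The experiments have their own controls, transfection in one and solvent in the other, and different lengths of treatment, so the kind of inhibition and the experiment cannot be told apart in this test. No member was called in the same direction by both treatments. SPARC and PDGFRB had positive values in both but were called only after siXBP1, and their differences between treatments were not called, with intervals of -0.32 to 0.72 and -0.28 to 1.30.

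From a list of 10 further genes reported as RIDD substrates, 7 were expressed well enough to be tested. With MKC8866, 3 of them rose and none fell, and 4 fell after siXBP1 and none rose (median log2 fold change 0.19 and -0.16). Among all tested genes, 1.36% were called higher with MKC8866 and 18.2% lower after siXBP1. This list too was chosen with earlier results of these data known, and it was not tested as a group. DGAT2, an enzyme of triglyceride synthesis, rose from 6.88 ± 0.536 CPM in Vehicle to 42.6 ± 2.92 CPM with MKC8866 (SD, n = 4), a log2 fold change of 2.63 ± 0.07, and fell slightly after siXBP1 (-0.28 ± 0.11, adjusted p = 0.0493). TGOLN2, a protein of the trans-Golgi network, rose from 102 ± 2.13 to 160 ± 6.89 CPM with MKC8866 (0.65 ± 0.04) and fell from 99.0 ± 4.98 to 59.4 ± 1.4 CPM after siXBP1 (-0.74 ± 0.05). For DGAT2 the knockdown groups overlapped, at 4.73 to 5.54 CPM in siCtrl and 3.85 to 4.78 CPM in siXBP1. Like CD59, DGAT2 and TGOLN2 were called in opposite directions, DGAT2 only just after siXBP1, and the differences between treatments were -2.91 and -1.39. ERN1, the mRNA of IRE1α itself, showed the same pair of directions at a smaller size, 0.25 ± 0.04 with MKC8866 and -0.16 ± 0.04 after siXBP1. GPC3, a cell-surface proteoglycan, fell after siXBP1 (-0.57 ± 0.14) and stood at -0.02 ± 0.14 with MKC8866, not called. TAPBP, ITGB2 and RUVBL1 were not called in either comparison. The other 3 genes of the list did not pass the filter on low counts.

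**Figure D4:**
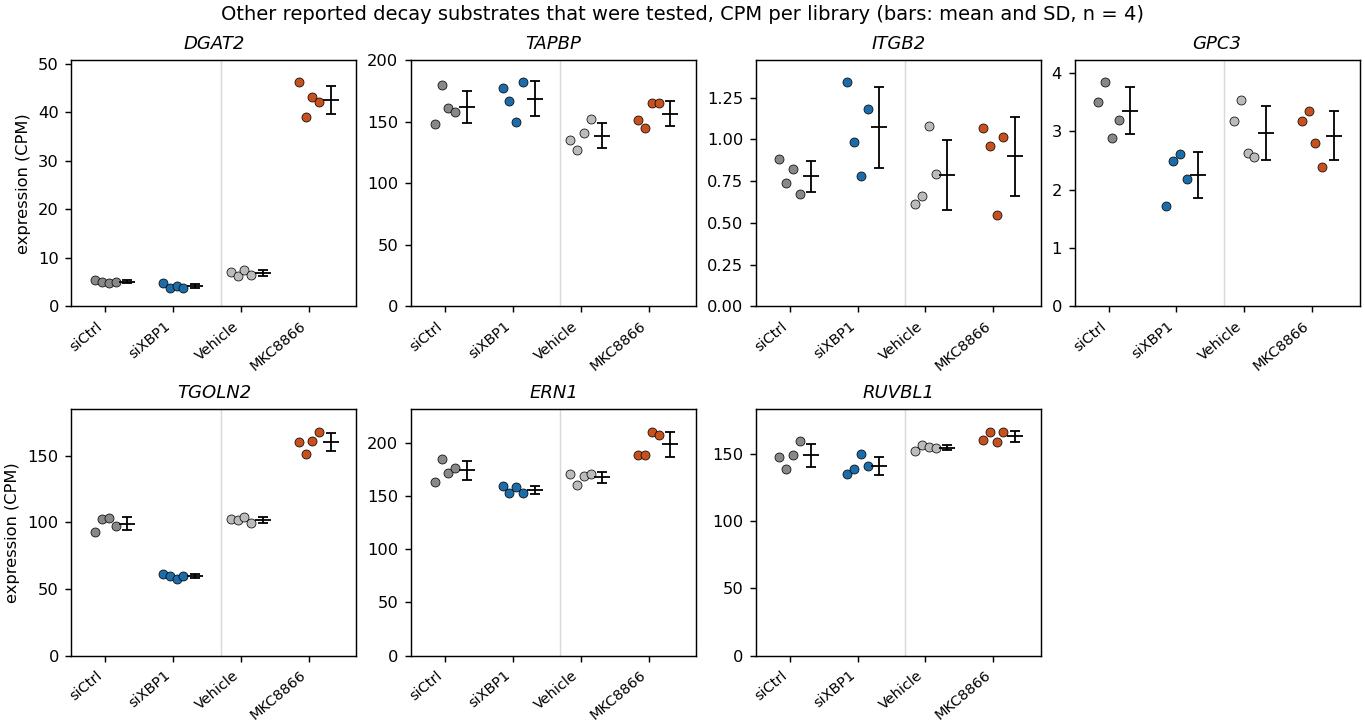
Expression in CPM (y axis from 0, own scale per gene) of the 7 other reported decay substrates that were tested, in the 4 libraries of each group (points) with mean and SD. DGAT2 and TGOLN2 show all MKC8866 libraries above all Vehicle libraries, and TGOLN2 also shows all siXBP1 libraries below all siCtrl libraries.

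The counts for genes that work with IRE1α and with the members stand beside the shares of all tested genes given above, 16.5% higher and 18.2% lower after siXBP1, and 1.36% higher and 3.11% lower with MKC8866. Of 7 tested genes for IRE1α, XBP1 and the tRNA ligase complex that joins the XBP1 exons, 5 fell after siXBP1. The 5 include XBP1 itself, the target of the siRNA, and ERN1, already counted among the further substrates above. They also include the ligase RTCB (-0.42 ± 0.04) and its partner ZBTB8OS (-0.21 ± 0.07). With MKC8866, 2 rose, XBP1 and ERN1. Of 17 genes for the enzymes that degrade cleaved mRNA, 6 fell and 3 rose after siXBP1, and 3 fell with MKC8866. The rescue factor PELO fell in both (-0.36 ± 0.04 and -0.14 ± 0.04), as did HBS1L, its partner (-0.27 ± 0.05 and -0.29 ± 0.04), and EXOSC1, a subunit of the exosome, fell with MKC8866 (-0.27 ± 0.07). After siXBP1 the 5′ exonuclease XRN1 was higher (0.25 ± 0.04), the exosome subunit EXOSC6 was higher (0.69 ± 0.06), and TTC37 of the Ski complex was lower (-0.24 ± 0.04).

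Around BLOC1S1, 5 of the other 12 genes for subunits of BLOC-1 and BORC fell after siXBP1 and 3 fell with MKC8866, and none rose in either comparison. BLOC1S3 was lower with both treatments (-0.48 ± 0.09 after siXBP1 and -0.70 ± 0.09 with MKC8866), as were BORCS6 (-0.51 ± 0.07 and -0.40 ± 0.07) and BLOC1S6 (-0.30 ± 0.04 and -0.16 ± 0.05). BLOC1S4 (-0.77 ± 0.10) and BLOC1S5 (-0.57 ± 0.07) were lower after siXBP1 and not called with MKC8866. BLOC1S1 was thus called higher with MKC8866 in a group of partner genes of which 3 were called lower, and the share of partner genes lower after siXBP1 stands beside 18.2% of all tested genes. Around CD59, the complement regulator CD55 rose after siXBP1 (0.98 ± 0.10) and CD46 fell (-0.20 ± 0.05), and with MKC8866 neither was called.

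Around TNFRSF10B, 2 of 9 genes for TRAIL and related death receptor signalling rose after siXBP1, close to the 16.5% of all tested genes, the decoy receptor TNFRSF10D (0.74 ± 0.10) and FAS (0.26 ± 0.05), and CFLAR, an inhibitor of caspase-8 activation, fell (-0.62 ± 0.05). None of the 9 was called with MKC8866. Around PER1, 5 of 9 clock genes rose after siXBP1 and none fell, beside 16.5% higher and 18.2% lower among all tested genes, with ARNTL at 0.54 ± 0.06, PER3 at 0.45 ± 0.05, PER2 at 0.39 ± 0.06 and NR1D2 at 0.18 ± 0.04. PER1 was thus called lower where its paralogs PER2 and PER3 were called higher, and PER3 was also higher with MKC8866 (0.16 ± 0.05). Among the 4 tested genes for extracellular matrix and its receptors, COL6A2, the partner chain of COL6A1, rose after siXBP1 (0.23 ± 0.05) and PDGFA fell (-0.25 ± 0.10), and none was called with MKC8866.

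**Figure D5:**
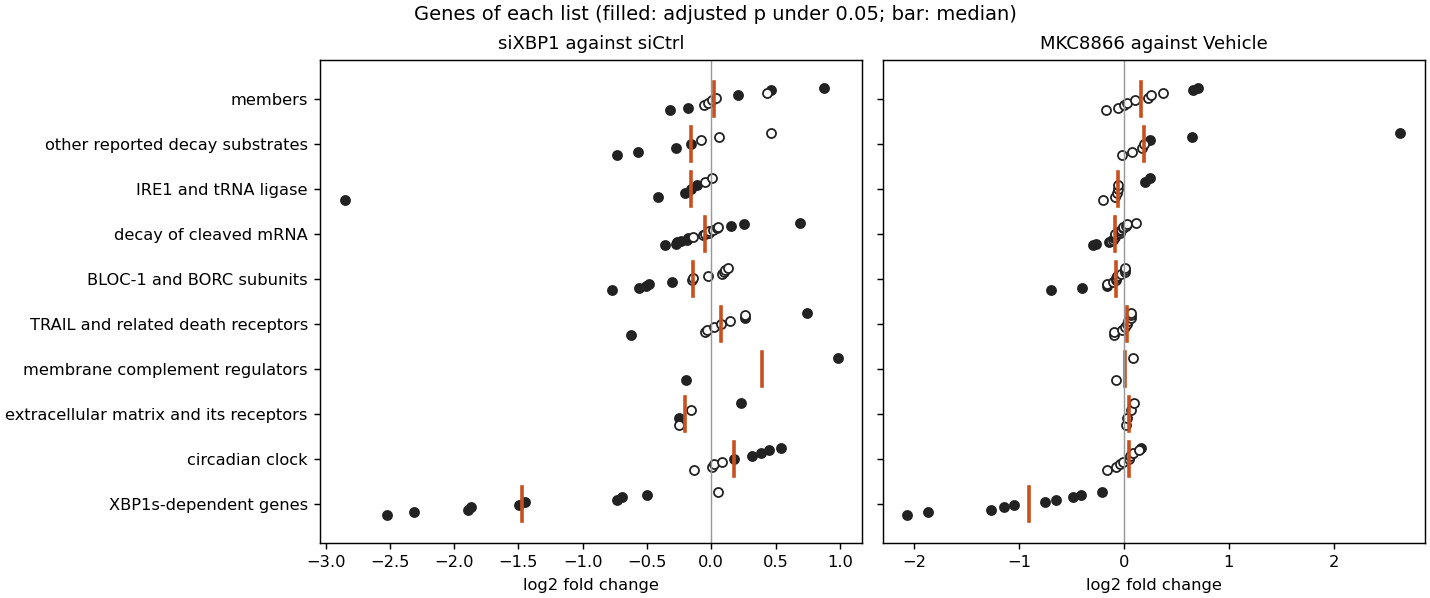
Log2 fold change (x axis) of each tested gene of the members and of the 9 lists (rows), after siXBP1 and with MKC8866; filled points passed an adjusted p under 0.05 and bars mark the median of a list. DGAT2 is the point at 2.63 with MKC8866, and the XBP1s-dependent genes lie to the left in both panels, with medians of -1.47 and -0.90.

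The gene whose log2 CPM followed each member most closely over the 16 libraries was also noted, among genes with a mean of at least 10 CPM. For CD59 it was SLC25A3 (Pearson's r = 0.986), for PER1 JUP (0.956), for TNFRSF10B RNF11 (0.947), for PDGFRB GPRIN2 (0.935), for COL6A1 LTBP4 (0.922) and for HGSNAT ZNF530 (0.909). The weaker leaders were VAC14 for BLOC1S1 (0.888), CLK4 for PMP22 (0.821), FPGT for SCARA3 (0.818) and ZNF415 for SPARC (0.804). These are the highest of very many correlations over libraries that share 4 groups, and they describe likeness of pattern only.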

How the data were processed

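The counts are those the authors deposited, raw fragments per gene without normalization. Per the labels and the study's methods, stranded paired-end reads were aligned to hg38 with STAR 2.5.2a and counted with featureCounts 1.5.0, without regard to strand and without fragments that overlap 2 genes. CPM were computed here from TMM library sizes.

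Tests were run in R 4.3.3 with edgeR 4.0.16 (quasi-likelihood F test, two-sided), 1 model per treatment against its control. A gene was tested where each group held a library with over 5 counts, as in the study's methods. Standard errors were derived from the log2 fold change and F, and intervals are 95%. Differences between responses were tested in 1 fit of all 16 libraries. The pipeline was tested on simulated data. Transcripts, their coding parts and gene names came from GENCODE and RefSeq tables, and hairpins from RNAfold 2.7.2 on windows of at most 30 bases.

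The members and lists were chosen with earlier results of these data known. Named genes are the members, XBP1, ERN1, up to 4 called genes per list and comparison by smallest adjusted p, and the gene most like each member. Alternatives were DESeq2 1.42.0, other size factors, filters and thresholds, a replicate block, all libraries in 1 fit, and removal of each library. Some genes of the marker and substrate lists are not reported here.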

Additional observations from a re-analysis of the deposited data

Results flagged for a closer look

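The responses to siXBP1 and to MKC8866 differed in the interaction test for CD59 (siXBP1 minus MKC8866, -0.8864 on the log2 scale), PER1 (-0.4243) and TNFRSF10B (0.2059). By Dixon's criterion, 2 libraries stood apart from the other 3 of their group: replicate 2 of Vehicle for COL6A1, at 248.1 CPM and below the others, and replicate 1 of siXBP1 for PMP22, at 1.238 CPM and above them. In all, 40 groups of 4 libraries were tested in this way (10 members in 4 groups), and chance alone flags about 1 in 20. Neither gene was called in either comparison, with or without these libraries.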

How the results depend on the processing

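Of 488 values recomputed for single members, 452 kept their direction and their side of the threshold, 12 lost a call, 7 gained one and 17 changed sign, and no value that changed sign was called. At an adjusted p under 0.01, 3 members remained called after siXBP1 and 1 with MKC8866. Without each library in turn, the members called numbered 4 to 5 after siXBP1, 1 to 2 with MKC8866 (BLOC1S1 lost in 5 of 8 fits) and 3 to 4 for the difference between responses, the fourth being BLOC1S1. Changes of sign were near 0: without each library in turn, the log2 fold change after siXBP1 ranged from -0.16 to 0.0912 for BLOC1S1, from -0.0474 to 0.0545 for COL6A1 and from -0.0877 to 0.0587 for SCARA3, that of TNFRSF10B with MKC8866 ranged from -0.0058 to 0.0108 (-0.0004 with at least 10 counts in every library), and the difference between responses from -0.01 to 0.0331 for HGSNAT and from -0.0004 to 0.10 for COL6A1. With at least 10 counts in every library, the difference for BLOC1S1 was called (-0.72, adjusted p = 0.0485) and PDGFRB had no value with MKC8866 or for the difference.

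Samples with the same replicate number correlated in their deviations from the group means at 0.073 to 0.227 in the inhibitor experiment. Samples with other numbers correlated there at -0.135 to 0.085. In that experiment 7 of 8 libraries correlated best with their own number, a hint from the data and not the design. In the knockdown experiment same numbers correlated at -0.0002 to 0.052 (0 of 8), which does not bear on the inhibitor experiment. No source used here says that the numbers mark pairs, so the main tests left the number out. The counts with MKC8866 depend on that choice. With the replicate number as a block, genes called with MKC8866 went from 941 to 2746 of the 21045 tested. Beside that larger share, 3 members were called with MKC8866 (PER1 added, 0.11, adjusted p = 0.0316). The members called numbered 5 after siXBP1 and 4 for the difference (BLOC1S1 added, -0.72, adjusted p = 0.0415). Depth limits BLOC1S1, SPARC, PMP22 and PDGFRB, with under 100 counts per library.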
